A study of Homo sapiens with 6 samples.

Results

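Binding of E2F7 was examined at the promoters of 8 genes that encode the E2F transcription factors E2F1, E2F2, E2F3, E2F7 and E2F8 and the pocket proteins RB1, RBL1 and RBL2. The genes were fixed by name, and their peaks were those that overlapped 2 kb either side of an hg18 start site. This gave 20 of the 63371 peaks in the 3 lists analysed: 5 of 9481 in growing cells, 6 of 10242 in quiescent cells and 9 of 43648 in senescent cells with RB knockdown. All cells were IMR90, a human fetal lung fibroblast line, and the assay was chromatin immunoprecipitation with sequencing (ChIP-seq) using 10 µg of an E2F7 antibody. The growing and quiescent samples are labelled as having had no treatment, and how quiescence was brought about is not stated. The RB knockdown sample came from cells infected with Ras and an RB hairpin, made senescent by Ras. The labels' protocol describes an ER-Ras vector (Ras switched on by tamoxifen) and collection 4 days after tamoxifen. There was 1 library per state, so no value carries a replicate error and no test between states was possible. The RB knockdown library differs from the others in Ras, senescence and RB at once, and these cannot be told apart here. Neither a senescent library without the RB hairpin nor a library with Ras but without senescence was analysed. The series also holds a senescent sample with E2F7 knockdown, which was not analysed here. How far RB was reduced cannot be read from peak lists.

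E2F factors switch genes of DNA replication and cell division on and off. E2F1, E2F2 and E2F3 are the activators, which the retinoblastoma protein, a pocket protein, binds and restrains until cyclin-dependent kinases release them. E2F7 and E2F8 are atypical E2Fs that repress transcription without a DP partner or a pocket protein, and several genes of this network are themselves known E2F targets, so that the network regulates its own parts.

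After removal of excess duplicates, 22628990 tags remained for growing, 25212239 for quiescent and 23379790 for RB knockdown cells, and each library was called against the same control of 22107968 tags. The caller took fragments of 125 bp in the RB knockdown library and of 200 bp in the other 2. The lists differed in quality, with a median false discovery rate (FDR, the caller's percent from exchanging ChIP and control) of 72.6% in the growing, 26.4% in the quiescent and 1.21% in the RB knockdown list. Fold enrichment (ChIP tags over local background), -10*log10 p and FDR are the authors' own values for each peak. They place a peak within its list and are not read as changes between lists.

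The promoters of 6 members are printed first, because they show the sequence at the annotated starts of genes whose peaks are described below. They are RefSeq promoters of the GRCh38.p14 build, from 250 bases before to 50 bases after the annotated start, written 5′ to 3′ along the gene. Capitals mark the E2F-type words searched, TTTCCCGC, TTTGGCGC, TTTCGCGC, TTTGCCGC and TTCCCGCC, on both strands. The first 4 promoters hold such a word, and the last 2 do not.
E2F1 promoter, chr20:33686336-33686635, minus strand: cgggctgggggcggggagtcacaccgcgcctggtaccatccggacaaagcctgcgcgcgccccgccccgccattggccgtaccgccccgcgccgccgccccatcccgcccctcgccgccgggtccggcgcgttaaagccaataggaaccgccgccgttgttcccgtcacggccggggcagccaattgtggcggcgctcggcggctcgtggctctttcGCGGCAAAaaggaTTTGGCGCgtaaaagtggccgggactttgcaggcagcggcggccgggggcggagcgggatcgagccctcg
E2F2 promoter, chr1:23531184-23531483, minus strand: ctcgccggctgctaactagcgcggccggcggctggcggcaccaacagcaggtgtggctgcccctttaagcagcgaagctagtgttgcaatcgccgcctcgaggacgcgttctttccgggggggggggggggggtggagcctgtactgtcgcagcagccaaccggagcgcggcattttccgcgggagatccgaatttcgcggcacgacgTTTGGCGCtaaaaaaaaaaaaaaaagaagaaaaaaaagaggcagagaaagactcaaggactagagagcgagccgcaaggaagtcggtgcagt
E2F3 promoter, chr6:20401629-20401928, plus strand: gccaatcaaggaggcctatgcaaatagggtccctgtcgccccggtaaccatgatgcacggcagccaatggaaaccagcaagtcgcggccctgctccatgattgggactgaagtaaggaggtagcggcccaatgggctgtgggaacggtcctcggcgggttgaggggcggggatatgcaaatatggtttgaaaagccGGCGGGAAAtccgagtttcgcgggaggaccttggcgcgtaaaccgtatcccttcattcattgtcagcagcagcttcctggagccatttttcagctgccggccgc
RBL1 promoter, chr20:37095948-37096247, minus strand: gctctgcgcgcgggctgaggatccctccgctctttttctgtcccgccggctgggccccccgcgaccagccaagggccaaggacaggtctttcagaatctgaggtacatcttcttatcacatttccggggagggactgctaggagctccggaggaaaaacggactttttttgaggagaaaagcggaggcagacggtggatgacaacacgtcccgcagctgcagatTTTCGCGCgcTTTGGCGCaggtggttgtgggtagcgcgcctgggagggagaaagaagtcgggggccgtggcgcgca
E2F7 promoter, chr12:77065520-77065819, minus strand: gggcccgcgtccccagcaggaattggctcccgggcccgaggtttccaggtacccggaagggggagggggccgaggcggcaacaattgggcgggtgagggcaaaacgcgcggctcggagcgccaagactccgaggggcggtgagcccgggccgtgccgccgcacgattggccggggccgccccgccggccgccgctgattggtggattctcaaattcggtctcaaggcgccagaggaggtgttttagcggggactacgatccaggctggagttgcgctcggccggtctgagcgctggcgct
RBL2 promoter, chr16:53434221-53434520, plus strand: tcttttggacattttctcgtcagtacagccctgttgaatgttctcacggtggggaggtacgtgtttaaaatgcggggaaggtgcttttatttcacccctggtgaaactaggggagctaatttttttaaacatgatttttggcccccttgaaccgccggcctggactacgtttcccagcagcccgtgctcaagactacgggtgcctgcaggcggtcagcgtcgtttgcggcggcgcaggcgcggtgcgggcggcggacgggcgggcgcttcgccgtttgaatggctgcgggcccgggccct

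At least 1 of the words stood in 5.58% of all 35116 tabled promoters (1958). In E2F1 the words lay 33 to 26 and 20 to 13 bases before the annotated start, and in E2F2 42 to 35 bases before it. RBL1 had 2 words, 26 to 19 and 16 to 9 bases before the start. In E2F3 the words TTCCCGCC and TTTCCCGC overlapped on the minus strand and formed 1 site, 54 to 46 bases before the start. The promoters of E2F7 and RBL2 held none of these words in this window, nor did the second tabled promoters of E2F3 and RBL2. CCAAT, searched on both strands, occurred 3 times in the E2F1 promoter and 4 times each in those of E2F3 and E2F7, and 34.6% of all tabled promoters held it. The word TTTGAA or its other strand TTCAAA, known as the CHR element of cell cycle genes, occurred once each in the promoters of E2F3 and RBL2 and in 15.2% of all tabled promoters. A match is a description of letters and not a binding site. The table held 7 of the 8 genes, without E2F8, and its RB1 start lay 173 kb inside the annotated gene, so that promoter is not shown. The hg18 start sites used for peaks were not checked against an hg18 annotation, and the RefSeq promoters were not placed on hg18. On GRCh38 the chromosome agreed for 8 of 8 genes and the strand for 7 of 7 tabled genes.

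The first question was how many of the 8 start sites carried a called peak in each state. On hg18, the build of all peak positions here, the sites were chr20:31737871 for E2F1, chr1:23730299 for E2F2, chr6:20510116 for E2F3, chr12:75983405 for E2F7 and chr11:19219400 for E2F8. Those of the pocket protein genes were chr13:47775884 for RB1, chr20:35157824 for RBL1 and chr16:52025852 for RBL2. In the RB knockdown list 8 of 8 did. In the growing list there were 5 (E2F1, E2F2, E2F3, E2F8 and RBL1) and in the quiescent list 5 (E2F1, E2F3, E2F8, RB1 and RBL1). E2F1, E2F3, E2F8 and RBL1, 4 of 8, had a peak in all 3 lists. E2F2 was called in the growing and RB knockdown lists, RB1 in the quiescent and RB knockdown lists, and E2F7 and RBL2 in the RB knockdown list alone.

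As background, the chromosomes were tiled with 768805 windows of the same length. Of these windows 6.12% held an RB knockdown peak, 1.47% a growing peak and 1.7% a quiescent peak, 0.222% held a peak of all 3 lists and 0.967% a peak of both the quiescent and the RB knockdown list, which shared 5 members. The pattern of E2F7 and RBL2, RB knockdown alone, was that of 4.94% of windows, the pattern of RB1 that of 0.745% and the pattern of E2F2 that of 0.213%. The shares of start sites, 100%, 62.5% and 62.5% for the RB knockdown, growing and quiescent lists, lay above these window shares. Genome windows are not promoters, however. The share among promoters in general was not analysed here, so whether these counts are particular to E2F and pocket protein genes was not tested.

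**Figure D1:**
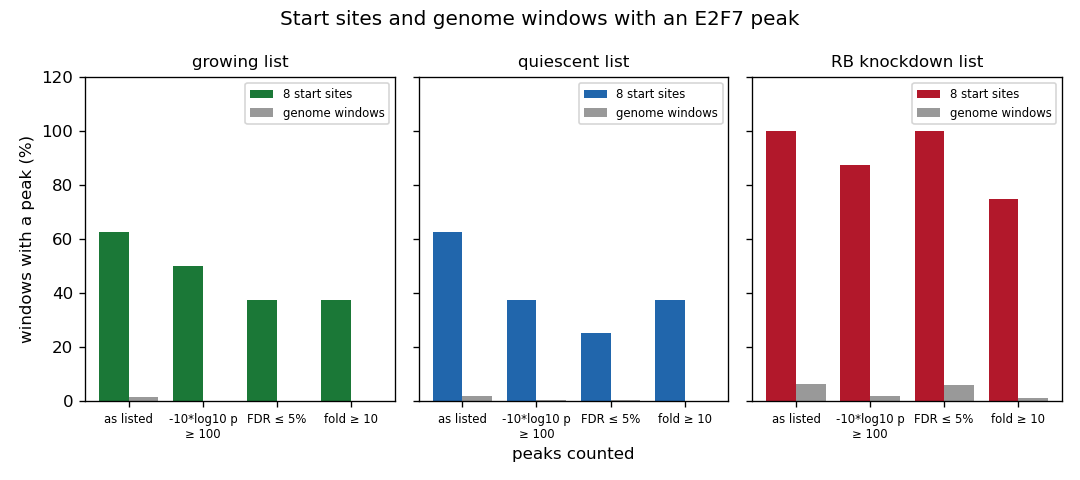
Percent of the 8 start sites (coloured bars) and of 768805 genome windows of the same length (grey bars) that held a peak, for each list and for all listed peaks or those past 1 of 3 thresholds. The start sites stand above the windows in each panel, and 8 of 8 carry an RB knockdown peak as listed.

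Thresholds were then applied, and the FDR cut was not equally strict in each list. An FDR of at most 5% kept 98% of RB knockdown, 17.8% of quiescent and 1.84% of growing peaks. The RBL2 peak passed it, though above only 3.47% of the RB knockdown list by -10*log10 p. The growing E2F1 peak did not pass, though above 96.2% of its list by that score. At an FDR of at most 5%, E2F3 and RBL1 stayed in all 3 lists, against 0.0276% of windows, and E2F2 also stayed in the growing list. That left 3 members in the growing list (0.0394% of windows), 2 in the quiescent list (0.34%) and 8 in the RB knockdown list (6.01%). A -10*log10 p of at least 100 left 4 growing (0.157% of windows), 3 quiescent (0.507%) and 7 RB knockdown members (1.95%), with 2 in all 3 lists (0.0698%). At a fold enrichment of at least 10 there were 3 growing (0.0354% of windows), 3 quiescent (0.165%) and 6 RB knockdown members (0.975%), and again E2F3 and RBL1 in all 3 lists (0.00989%). At that fold E2F7 and RBL2 were in no list. The growing peaks of E2F1 and E2F8 and the quiescent peaks of E2F1, E2F8 and RB1 are thus calls whose FDR was above 5%.

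**Figure D2:**
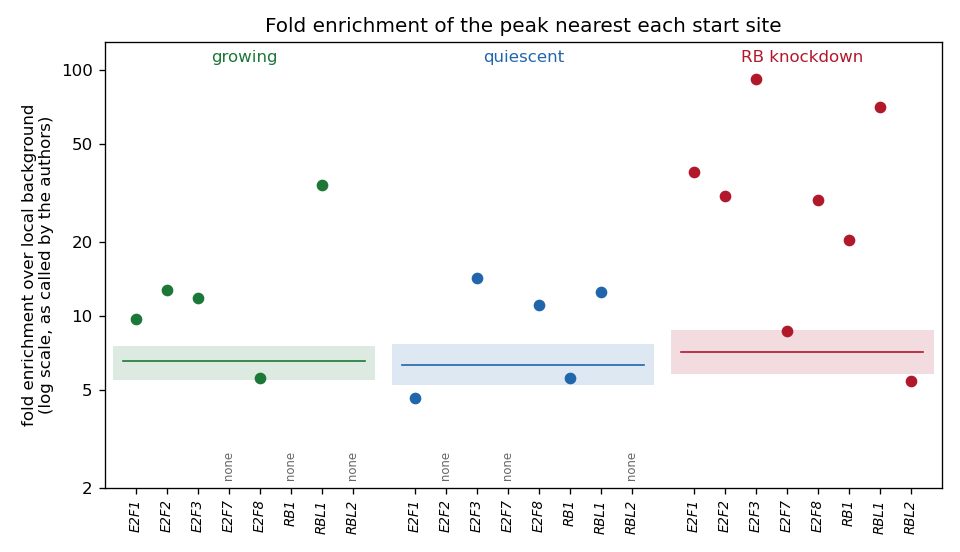
Fold enrichment over local background (log axis, the authors' values) of the peak nearest each start site, by gene within each list. Lines and bands give the median and the quartiles of all peaks of that list, "none" marks a start site without a peak, and E2F3 and RBL1 stand above the band in all 3 lists.

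Among the activator genes, E2F1 was high within the growing and RB knockdown lists and low within the quiescent list. Its growing peak (chr20:31736688-31738178) held 66 tags (95% exact Poisson interval 51.0 to 84.0, counting error only, as for all tag intervals here) with 9.77-fold enrichment and an FDR of 22.3%. Its quiescent peak (chr20:31737487-31738573) held 41 tags (29.4 to 55.6) with 4.63-fold enrichment and an FDR of 35.4%. The RB knockdown peak (chr20:31736634-31738702) held 236 tags (207 to 268) with 38.7-fold enrichment and an FDR of 0%. Within its own list the RB knockdown peak ranked 51 of 43648 by fold enrichment and the growing peak 227 of 9481, while the quiescent peak stood above 12.6% of its list. By -10*log10 p, tags or tags per kb the quiescent peak stood above 35.7%, 38.1% or 34.8% of its list. Summits lay 28 bp upstream of the start in the RB knockdown list, 22 bp upstream in the quiescent list and 171 bp downstream in the growing list.

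E2F2, another activator, was called in 2 of 3 lists. The growing peak (chr1:23729520-23731080) held 99 tags (80.5 to 121) with 12.8-fold enrichment, an FDR of 0% and rank 32 of 9481 by fold enrichment. The RB knockdown peak (chr1:23729829-23731260) held 135 tags (113 to 160) with 30.9-fold enrichment and rank 96 of 43648. Their summits were 18 bp downstream and 61 bp upstream of the start. No quiescent peak lay in the window, and the nearest, 6.06 kb upstream, had 33 tags and an FDR of 52.0%. Absence of a call means that no peak passed the caller's p cutoff of 1e-05, not that E2F7 was absent.

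E2F3 carried the highest RB knockdown enrichment of the 8 genes. That peak (chr6:20509216-20510555) held 398 tags (360 to 439) with 92.4-fold enrichment and ranked 3 of 43648 in its list. The growing peak (chr6:20508751-20510558) held 122 tags (101 to 146) with 11.8-fold enrichment and ranked 59 of 9481. The quiescent peak (chr6:20509014-20510591) held 116 tags (95.9 to 139) with 14.3-fold enrichment and ranked 236 of 10242. All 3 had an FDR of 0%, and their summits lay 51 to 85 bp upstream of the start. E2F3 was also the member with more than 1 peak in its window. A second quiescent peak (chr6:20510821-20511718) had 33 tags, 5.68-fold enrichment, an FDR of 50.4% and a summit 1040 bp downstream. A second RB knockdown peak (chr6:20512084-20513416) reached the window by 33 bp, with 69 tags, 7.01-fold enrichment and a summit 2246 bp downstream. RefSeq tables a second E2F3 start 1735 bp downstream of the first, measured within GRCh38. That start was not placed on hg18, so whether either second peak lies at it was not tested. The peak nearest outside any window was an E2F2 peak of the RB knockdown list, whose edge lay 2566 bp downstream of the E2F2 start and which held 51 tags.

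Of the atypical repressor genes, E2F7 itself had a peak at its start in the RB knockdown list alone. This peak (chr12:75983197-75984372) held 63 tags (48.4 to 80.6) with 8.73-fold enrichment, an FDR of 0.03% and a summit 132 bp upstream. By fold enrichment it stood above 74.1% of its list, while by tags per kb of peak it stood above 43.9%. The nearest growing peak was 8.83 kb downstream, and the nearest quiescent peak 142 kb downstream.

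The other atypical gene, E2F8, was called in all 3 lists. The growing peak (chr11:19218304-19219939) held 57 tags (43.2 to 73.9) with 5.58-fold enrichment and an FDR of 68.9%. Its fold was below the list's median of 6.56, but the peak stood above 87.4% of its list by -10*log10 p, 87.2% by tags and 62.4% by tags per kb. The quiescent peak (chr11:19218602-19219620) held 51 tags (38.0 to 67.1) with 11.1-fold enrichment and an FDR of 7.7%. The RB knockdown peak (chr11:19218695-19219623) held 136 tags (114 to 161) with 29.8-fold enrichment and ranked 103 of 43648. All 3 summits lay downstream of the site used, at 375, 301 and 264 bp in the order growing, quiescent and RB knockdown. E2F8 and RBL2 were the members whose RB knockdown summit was more than 150 bp from the start site, against 6 of 8 within that distance. How often summits lie that close to start sites in general was not analysed. E2F8 had no tabled promoter, so whether its offset lies in the site used was not tested.

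Among the pocket protein genes, RB1 encodes the retinoblastoma protein that the hairpin targeted. Its quiescent peak (chr13:47775171-47776338) held 42 tags (30.3 to 56.8) with 5.61-fold enrichment and an FDR of 25.3%. The RB knockdown peak (chr13:47775165-47776110) held 87 tags (69.7 to 107) with 20.4-fold enrichment, an FDR of 0% and rank 295 of 43648. Both summits were at the start site, 3 and 8 bp downstream of it. The growing list had no RB1 peak within 50 kb, and its nearest was 375 kb away.

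RBL1, which encodes p107, was the pocket protein gene with a firm call in each list. The growing peak (chr20:35157392-35158493) held 95 tags (76.9 to 116) with 34.2-fold enrichment, the second highest of 9481 peaks (rank 2). The quiescent peak (chr20:35157560-35158609) held 56 tags (42.3 to 72.7) with 12.6-fold enrichment, an FDR of 0.5% and rank 407 of 10242. The RB knockdown peak (chr20:35156930-35158479) held 242 tags (212 to 274) with 71.0-fold enrichment and ranked 11 of 43648. Summits lay 93, 88 and 50 bp upstream of the start in that order.

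RBL2, which encodes p130, had the lowest fold enrichment and tags per kb of the 8 genes within the RB knockdown list. Its single peak, in the RB knockdown list (chr16:52026366-52027124), held 33 tags (22.7 to 46.3) with 5.46-fold enrichment and an FDR of 4.82%. It stood above 19% of its list by fold enrichment and above 3.47% by -10*log10 p. The peak did not reach the start site, running from 514 to 1272 bp downstream with its summit at 791 bp. RefSeq tables a second RBL2 start 1148 bp downstream of the first, again within GRCh38. The RefSeq starts were not placed on hg18, so whether the peak lies at the second start was not tested.

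**Figure D3:**
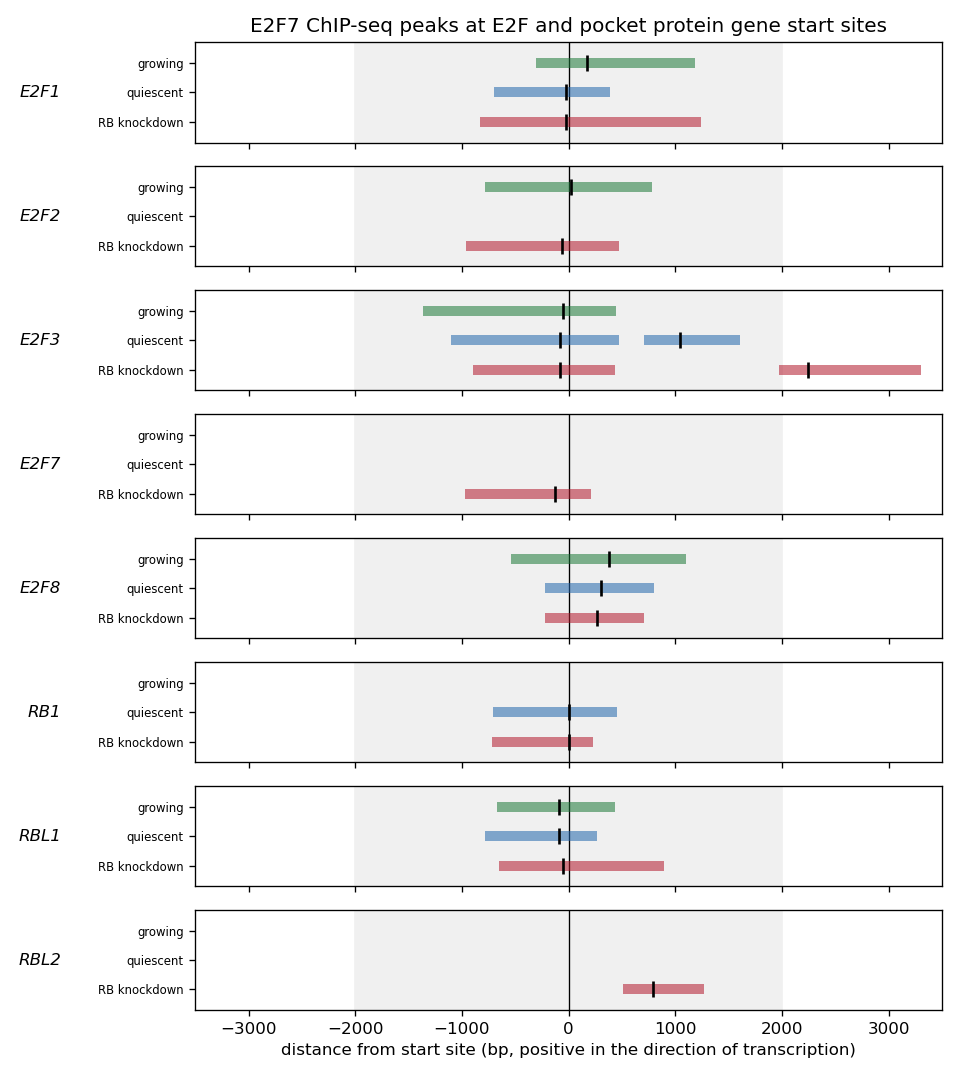
Extent of each peak (bars) and its summit (black ticks) by distance in bp from the start site, positive in the direction of transcription, for 8 genes and 3 lists. Grey marks 2 kb either side; the RB1 summits fall 3 and 8 bp from the start, and the RBL2 peak lies wholly downstream of it.

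Levels of the 8 genes were then ordered within the RB knockdown list by tags per kb of peak, against a list median of 56.4 tags per kb. This measure divides by the called peak width, which ran from 759 to 2069 bp among these peaks, so other measures give another order. E2F1, with the widest peak, was above E2F8 by tags (236 against 136) and by fold enrichment (38.7 against 29.8). E2F3 led with 297 tags per kb (95% exact Poisson interval 269 to 328), which overlapped no other member's interval. RBL1 followed with 156 tags per kb (137 to 177), E2F8 with 146 (123 to 173), E2F1 with 114 (100 to 130), E2F2 with 94.3 (79.0 to 112) and RB1 with 92.0 (73.7 to 113). Each neighbouring pair from RBL1 to RB1 had overlapping intervals. E2F7 with 53.6 tags per kb (41.2 to 68.5) and RBL2 with 43.5 (29.9 to 61.1) came last, below the interval of RB1, with intervals that overlapped each other and included the list's median. The median fold enrichment of the 8 RB knockdown peaks was 30.4, against 7.13 for all peaks of that list, and 7 of 8 were above it.

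Order in the other lists was less resolved. In the growing list RBL1 had 86.2 tags per kb (69.7 to 105), E2F3 67.5 (56.0 to 80.6), E2F2 63.4 (51.5 to 77.2), E2F1 44.3 (34.2 to 56.3) and E2F8 34.8 (26.4 to 45.1). In the quiescent list E2F3 had 73.5 tags per kb (60.7 to 88.2), RBL1 53.3 (40.3 to 69.3), E2F8 50 (37.3 to 65.8), E2F1 37.7 (27.1 to 51.2) and RB1 36.0 (25.9 to 48.6). Every neighbouring pair in these 2 orders had overlapping intervals. The list medians were 33.0 tags per kb in the growing and 42.9 in the quiescent list, so E2F1 and RB1 lay below the median among quiescent peaks.

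Summit positions can be set side by side where heights cannot. Between the quiescent and RB knockdown lists the summits of all 5 shared members lay within 50 bp of each other: 5 bp apart at RB1, 6 at E2F1, 7 at E2F3, 37 at E2F8 and 38 at RBL1. Among all 5613 quiescent peaks that overlapped an RB knockdown peak, 49.3% had a summit that close, with a median separation of 51 bp. Growing summits lay further off at some members. They were 199 bp from the RB knockdown summit at E2F1, 111 at E2F8, 79 at E2F2, 43 at RBL1 and 27 at E2F3, against a median of 164 bp and 20.3% within 50 bp for all 2228 overlapping growing peaks. From the quiescent summit they were 193 bp away at E2F1, 74 at E2F8, 34 at E2F3 and 5 at RBL1. All 1446 growing peaks that overlapped a quiescent peak had a median of 142 bp, with 23.4% within 50 bp. The lists share a control library, and the caller's fragment length differed between the RB knockdown list and the other 2.

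Around the start sites, within 50 kb but outside the 2 kb windows, there were 24 further RB knockdown peaks, 8 growing and 5 quiescent peaks. In that order the whole lists held 43648, 9481 and 10242 peaks, so these counts are not read against each other. Genome windows of 10 kb either side held a peak of these lists in 21%, 5.8% and 6.32% of cases. Flanks of 50 kb elsewhere were not counted, so whether the counts here, or those at single genes below, exceed ordinary peak density was not tested. Fold enrichment of the further peaks ran from 3.36 to 13.97 in the RB knockdown list, from 3.8 to 11.02 in the growing list and from 4.97 to 7.97 in the quiescent list. Of the 8 growing peaks, 4 lay around E2F7, all downstream of its start. The most enriched of them (chr12:75947437-75948520) lay 35.3 kb downstream, with 63 tags, 11.02-fold enrichment and an FDR of 4.14%. An RB knockdown peak (chr12:75947547-75948330) with 58 tags and 13.97-fold enrichment had its summit 5 bp from it, and this was more enriched than the RB knockdown peak at the E2F7 start itself. A second pair of growing and RB knockdown peaks 19.3 kb downstream had summits 96 bp apart, with a growing FDR of 77.6%. At E2F2 there were 8 further RB knockdown peaks, of which those 6.58 and 8.84 kb upstream overlapped quiescent peaks. RB1, RBL2 and E2F8 had 1 further RB knockdown peak each, and no growing or quiescent peak.

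**Figure D4:**
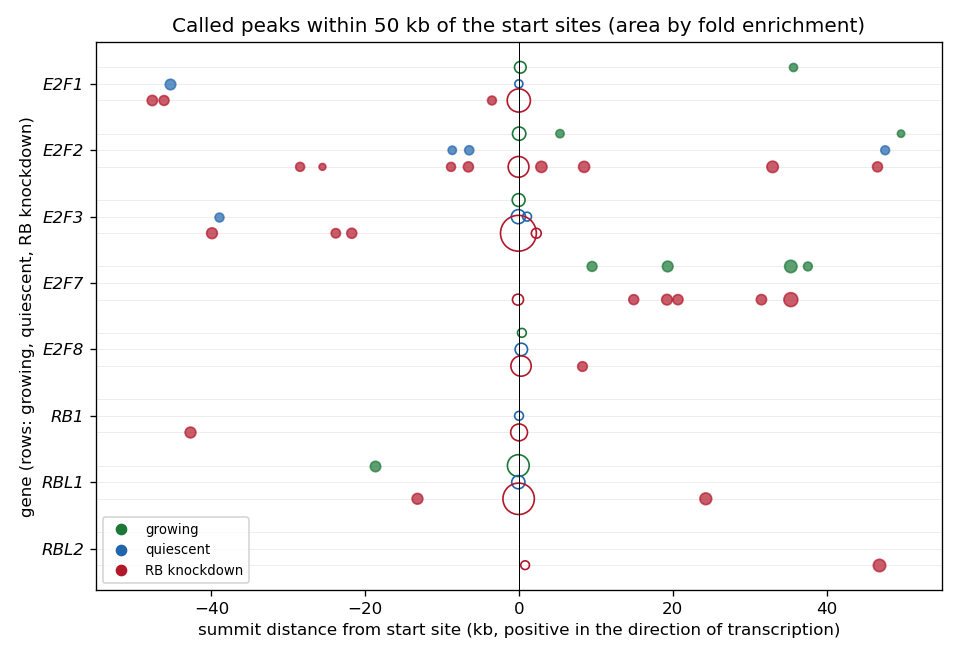
Summits of peaks within 50 kb of the 8 start sites, by distance in kb (positive in the direction of transcription), with 3 rows per gene for the growing, quiescent and RB knockdown lists and circle area by fold enrichment. Open circles are peaks at the start sites and filled circles the others; 4 of the 8 other growing peaks lie downstream of E2F7, where no quiescent peak was called.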

How the data were processed

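The submitters' processing notes name Bowtie and the hg18 build; no Bowtie version is given in the sources used here. Peak calling was with MACS 1.4.1, library by library against 1 control (p cutoff 1e-05), per the file headers, which do not say which labelled sample was the control. The deposited tag count is the number of ChIP tags in a peak, fold enrichment is a linear ratio to local background, -10*log10 p is a deposited score, and FDR is a deposited percent, all per the file headers. Peak width and summit offset are in bp. Summits were placed at the peak start plus the offset, which may be off by 1 bp.

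Peaks overlapping a window by at least 1 bp were counted (Python 3.11.15, pandas 2.3.3, scipy 1.17.1). The overlap code was tested on simulated data. The background was every tile of the windows' length up to the largest peak end of each chromosome. With 1 library per group no test was run. Alternatives were other thresholds, windows, list lengths, tilings and rankings. All 8 members were named; they, the motifs and the alternatives were chosen with earlier results of these data known. Other E2F and DP genes were not placed, because no hg18 annotation was at hand.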

Additional observations from a re-analysis of the deposited data

How the results depend on the processing

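Counts of start sites with a peak depended on the threshold and little on the window. At an FDR of at most 5% they were 3 in the growing list, 2 in the quiescent list and 2 in all 3 lists, against 5, 5 and 4 as listed. A -10*log10 p of at least 100 gave 3 in the quiescent list and 2 in all 3, and a fold enrichment of at least 10 gave 3, 3 and 2. The RB knockdown count stayed between 6 and 8 of 8. Windows of 1 and 5 kb, or summits inside the window, changed no count, while the share of genome windows with an RB knockdown peak was 3.73%, 12.5% and 5.26%. In that order growing shares were 0.891%, 3.15% and 1.21%, and quiescent shares 1.08%, 3.52% and 1.31%. Shares with a peak of all 3 lists were 0.133%, 0.516% and 0.149%. With 10 kb (added after seeing the data) there were 6 growing (5.8% of windows), 6 quiescent (6.32%) and 8 RB knockdown members (21%). In all 3 lists there were 5 (1.13%). Without the growing list, quiescent and RB knockdown shared 5 members (also added). With the RB knockdown list cut to its 9481 strongest peaks by -10*log10 p, RBL2 was lost (1.52% of windows); by fold enrichment E2F7 ranked 11187 and by tags 11735, outside such a cut. Shares of windows rose to 1.68%, 1.94% and 6.98% (growing, quiescent, RB knockdown) over the caller's effective genome size. By fold enrichment the growing E2F8 peak stood above 26.2% of its list, lower than by the other rankings. Other peaks also shifted with the ranking. The quiescent E2F8 peak stood above 93.6% of its list by fold enrichment and 50.6% by tags, and the quiescent RBL1 peak above 96% and 55.6%. No paired analysis was possible because each state had 1 library.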
